A study of Rattus norvegicus with 84 samples.

Results

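The genes described here encode the protein components of the cytosolic ribosome, and they were chosen by name: every row of the count table whose symbol is Rps or Rpl with a number, plus Rpsa, Rplp0, Rplp1 and Rplp2. The rule found 74 of the 41919 genes in the table, of which 30 belong to the small subunit and 44 to the large subunit, the stalk proteins included. The rule uses symbols and no measured value, but members were chosen with earlier results of these data known. Pseudogenes (75 symbols ending in -ps) and mitochondrial ribosomal proteins (76 genes) fall outside the rule.

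The libraries come from the 2 subregions of the nucleus accumbens, Core and Shell, of wild-type Long-Evans rats. Within each subregion the labels give 3 conditions (Ext, HC and Ctx) and 2 treatments (Coc and Sal), so that there are 12 groups of 7 libraries: Ext_Coc, Ext_Sal, HC_Coc, HC_Sal, Ctx_Coc and Ctx_Sal in Core, and the same 6 in Shell. The study's title names cocaine withdrawal and extinction, but the labels spell out neither the 3 conditions nor Sal, and give no dose, time, age or sex. Nor do they tie libraries to animals, and a p-value here rests on the spread among libraries, which may be partly technical. Libraries were made from total RNA with a stranded low-input kit and had totals of 13.6 to 22.5 M (mega) counts. Titles carry a series number: 1 and 2 occur only in Core, 3 and 4 only in Shell, and the F series (12 libraries in each subregion) in both. Between the numbered series, Core against Shell therefore cannot be told apart from series. Markers of striatal projection neurons, 10 genes that include Drd1 and Penk, had counts in both subregions, with a summed level of 353 to 2398 in Core and 771 to 1990 in Shell, in CPM (counts divided by the library total in M).

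A cytosolic ribosome holds 1 copy of almost every one of its proteins, and its parts are made in matched amounts. The small subunit holds the decoding site that reads the messenger RNA. The large subunit forms the peptide bond, and its stalk (Rplp0, Rplp1 and Rplp2) recruits the translation factors. Messenger RNAs of this family typically begin with a C followed by a run of pyrimidines, the TOP motif, through which the kinase mTOR and the RNA-binding protein Larp1 control their translation. Neurons make local use of such messages, and total RNA libraries read them together with unspliced and nuclear RNA.

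The start sites show what the members share outside their names. RefSeq promoters of rat build GRCr8 (250 bases before to 50 after the annotated start) were found for 59 of the 74 members. A run of at least 8 pyrimidines (C or T, sense strand) that touches the window from 20 bases before to 30 bases after the start was present in 49 of 59 members (83.1%), against 23.7% of 21851 promoters of protein-coding genes. The median of the longest run was 11 bases in members and 5 bases over all. The letters CTTTC, sense strand, stood in that window in 32 of 59 members (54.2%) and in 6.02% of all promoters. CTTCC, counted the same way and able to share letters with CTTTC, stood in 21 members (35.6%) and in 10.5% of all. CCGGAA, on either strand of the whole window, was in 54.2% of members and 17.7% of all. TATAAA, on either strand in the 40 bases before the start, was in 6.78% of members and 2.63% of all. These are matches of letters and not measured sites.

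The following 8 stretches run from 40 bases before to 20 bases after the start, 5′ to 3′ on the gene's strand, and the capitals mark the longest pyrimidine run near the start. The first 4 are shown because these members had high levels or large differences below, the next 3 for members followed through the groups, and Rps4y2 because it behaved unlike the others.
Rps23 (GRCr8, chr2:23814477-23814536, + strand): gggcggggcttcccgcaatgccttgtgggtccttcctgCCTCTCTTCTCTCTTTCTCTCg
Rplp1 (GRCr8, chr8:71290853-71290912, - strand): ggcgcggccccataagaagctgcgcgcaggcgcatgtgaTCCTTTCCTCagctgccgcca
Rpl34 (GRCr8, chr2:221962264-221962323, - strand): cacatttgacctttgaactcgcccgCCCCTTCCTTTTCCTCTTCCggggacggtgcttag
Rps15 (GRCr8, chr7:10068096-10068155, - strand): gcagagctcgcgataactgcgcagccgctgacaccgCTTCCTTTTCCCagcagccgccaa
Rpsa (GRCr8, chr8:128728839-128728898, + strand): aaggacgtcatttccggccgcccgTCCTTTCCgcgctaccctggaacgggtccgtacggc
Rps6 (GRCr8, chr5:106420521-106420580, - strand): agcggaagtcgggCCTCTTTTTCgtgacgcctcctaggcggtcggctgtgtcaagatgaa
Rpl3 (GRCr8, chr7:113507971-113508030, - strand): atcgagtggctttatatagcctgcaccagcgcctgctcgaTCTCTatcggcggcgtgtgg
Rps4y2 (GRCr8, chr4:183000873-183000932, + strand): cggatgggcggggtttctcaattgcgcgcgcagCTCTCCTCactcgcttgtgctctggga
The marked run was 21 bases in Rps23, 20 in Rpl34, 12 in Rps15 and 5 in Rpl3. Rps4y2 carries a Y in its symbol but is annotated on chromosome 4 in this build.

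All 74 members had counts in every one of the 84 libraries, and all passed the filter on low counts. Together they took 0.317% ± 0.063 (SD, n = 84) of the counts of a library. Their levels were compared per kilobase of the gene length that the authors' count and FPKM values imply. This length runs from 359 (Rpl37) to 6871 bases (median 2977). It may include introns, and no label states the counting feature. Levels per kb therefore need not rank members by the level of their messenger RNA. On this scale the mean levels spanned 98.5-fold. Rps23, a protein of the decoding centre, stood first with 73.6 CPM per kb, followed by the stalk protein Rplp1 with 45.6. The next highest named here were Rpl41, the shortest protein of the family, with 37.0, Rpl23a with 36.9 and Rpl13a with 35.9 CPM per kb. The low end held Rps13 with 4.11, Rpl30 with 3.82, Rpl39 with 3.77, Rps14 with 3.20, Rpl22 with 2.30 and Rps4y2 with 0.75 CPM per kb. The SDs of neighbours in this order overlapped nearly everywhere, as the plot of member levels shows. Counts were spread widely over the set: the 3 members with most counts (Rps23, Rpl13a and Rpl3) made up 10.6% of all ribosomal protein counts and the top 10 made up 30.3%.

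**Figure D1:**
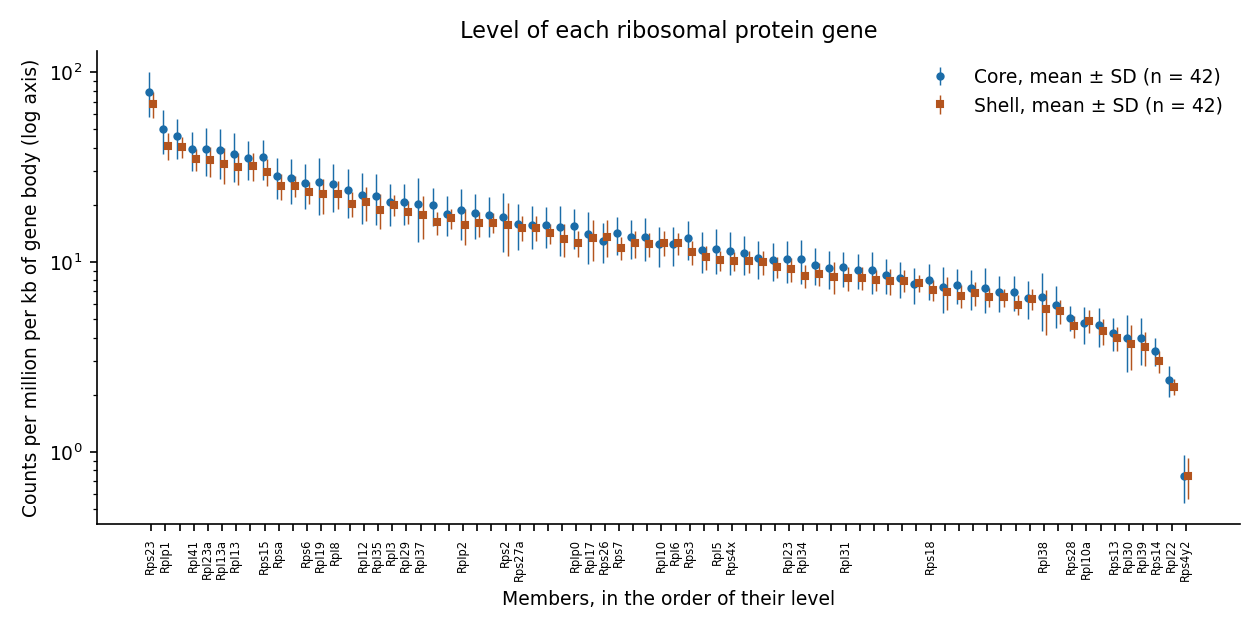
Level of each of the 74 ribosomal protein genes, in CPM per kb of the implied gene length (gene body in the axis label) on a log axis, ordered from highest to lowest, with members of the text labelled; points are means and bars SD over 42 Core (circles) and 42 Shell (squares) libraries. Levels fall from 73.6 (Rps23) to 0.75 (Rps4y2) CPM per kb, and the Core and Shell bars overlap at every member.

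The background level of each library was read from olfactory and vomeronasal receptor genes (1844 genes whose symbols begin with Olr, Vom1r or Vom2r), which are expressed in sensory epithelia and have little known use in the accumbens. Their counts per base, applied to the implied length of all genes, give an estimate of the percentage of counts that fall evenly over these lengths. The estimate was 22.4% ± 13.9 (SD, n = 84), from 1.68% to 55.1% in 83 libraries. The remaining library, 17-F of Core Ctx_Coc, reached 100% (100.5% as computed), so it held as many counts on receptor genes as a library made of background alone would. Of the counts on ribosomal protein genes themselves, a mean of 1.40% over 83 libraries would come from such background, but 46.5% in 17-F and 4.80% in 12-F of Shell Ext_Sal, the library with the next highest background. Among members this part was 0.24% for Rps23, 7.73% for Rpl22 and 24.1% for Rps4y2, with a median of 1.42%.

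The ribosomal protein share was high where the background was low. Background counts are part of the library total, so a fall of the share with them is partly built in. In the 17 libraries under 10% background it lay between 0.360% and 0.469% (median 0.411%). In the 14 libraries with 10 to 20% it lay between 0.253% and 0.381% (median 0.312%), which overlaps the range below 10%. In the 34 libraries with 20 to 30% it lay between 0.246% and 0.356% (median 0.299%). In the 17 libraries with 30 to 40% it lay between 0.234% and 0.297%. The lowest share was 0.0411% in library 17-F and the next lowest was 0.218% in 12-F. The highest were 0.469% in library 1-18 of Core Ctx_Sal (background 2.80%) and 0.456% in 15-F of Core HC_Sal (5.67%). Set against the counts outside the background estimate, the share was 0.402% ± 0.034 (SD, n = 83, without 17-F, for which no such counts are left). Its coefficient of variation was 8.48%, against 17.4% for the share of all counts in the same 83 libraries.

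**Figure D2:**
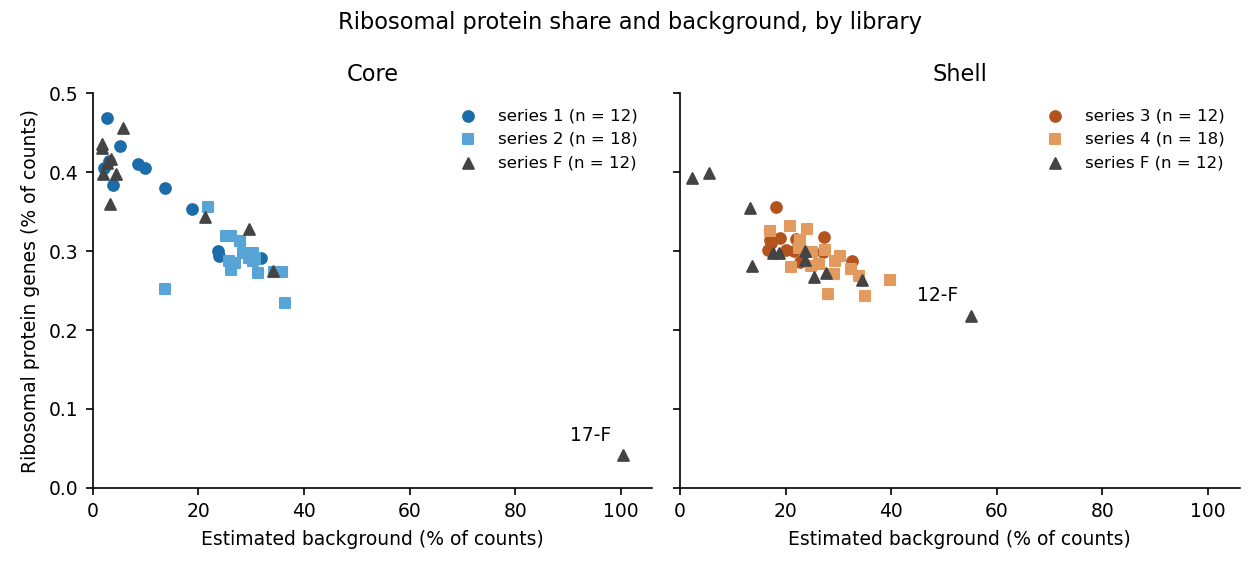
Share of counts on the 74 ribosomal protein genes (y axis, percent) against the estimated background (x axis, percent of counts), 1 point per library, in Core (left) and Shell (right), with the symbol for the series in the title. Shares fall from 0.469% at a background of 2.80% to 0.218% in 12-F and 0.0411% in 17-F; 15 of the 17 libraries under 10% background are Core.

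In Core, the ribosomal protein share was 0.343% ± 0.054 (SD, n = 7 here and below) in Ext_Coc and 0.355% ± 0.070 in Ext_Sal. It was 0.336% ± 0.065 in HC_Coc and 0.343% ± 0.067 in HC_Sal. It was 0.280% ± 0.124 in Ctx_Coc and 0.352% ± 0.076 in Ctx_Sal. The Ctx_Coc group ran from 0.0411% (17-F) over a median of 0.292% to 0.430%, so 1 library set most of its spread. The ranges of all 6 Core groups overlapped.

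In Shell the shares were 0.300% ± 0.034 in Ext_Coc, 0.286% ± 0.037 in Ext_Sal and 0.316% ± 0.037 in HC_Coc. They were 0.296% ± 0.012 in HC_Sal, 0.293% ± 0.017 in Ctx_Coc and 0.301% ± 0.059 in Ctx_Sal. The Shell groups too overlapped with each other. The mean estimated background beside them was 15.8% in Core Ext_Coc, 19.9% in Core Ext_Sal, 17.7% in Core HC_Coc, 21.7% in Core HC_Sal, 34.2% in Core Ctx_Coc and 14.8% in Core Ctx_Sal. In Shell it was 26.1% in Ext_Coc, 29.98% in Ext_Sal, 18.6% in HC_Coc, 21.4% in HC_Sal, 26.3% in Ctx_Coc and 22.2% in Ctx_Sal. In each subregion the group with the highest background also had the lowest ribosomal protein share, and both are parts of the same totals.

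**Figure D3:**
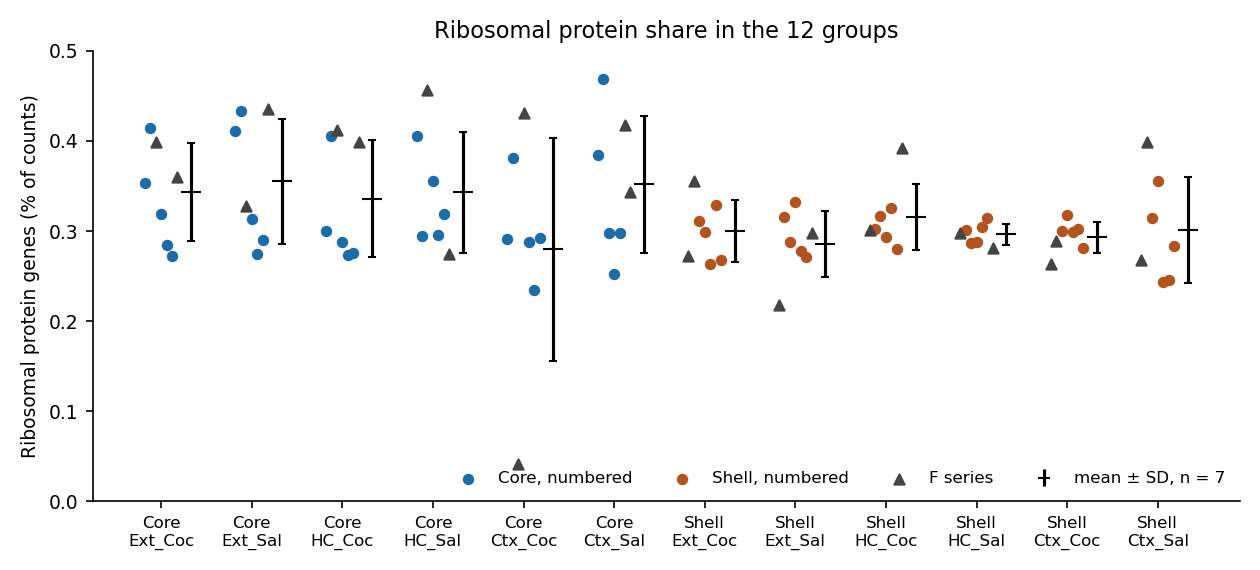
Share of counts on the 74 ribosomal protein genes (percent) in the 12 groups; each symbol is 1 library (circles numbered series, triangles F series) and the bar is mean ± SD of 7 libraries. Library 17-F of Core Ctx_Coc lies at 0.0411%, and the other 83 libraries lie between 0.218% and 0.469%.

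Values of single members follow. Rps6, the small-subunit protein phosphorylated by S6 kinase, had 6.80 CPM in 17-F and 48.0 to 114 CPM in the 41 other Core libraries (Core median 71.5). Its Shell range was 51.8 to 92.5 CPM (median 66.0). By group its medians were 80.9 (Ext_Coc), 74.7 (Ext_Sal), 61.0 (HC_Coc), 67.9 (HC_Sal), 65.6 (Ctx_Coc) and 74.6 CPM (Ctx_Sal) in Core. In Shell they were 61.8, 66.1, 70.7, 66.4, 65.0 and 67.7 CPM in the same order. No Rps6 group stood clear of the others.

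Rpl3, which lies beside the peptidyl transferase centre, had 10.1 CPM in 17-F, 77.4 to 161 CPM in the other Core libraries (Core median 107) and 82.2 to 151 CPM in Shell (median 109). Rps27a, made as a fusion with ubiquitin, had 6.61 CPM in 17-F, 22.8 to 57.3 CPM in the rest of Core and 26.5 to 45.5 CPM in Shell. Rpsa, also known as the laminin receptor, had 10.8 CPM in 17-F, 81.5 to 162 CPM in the rest of Core and 69.7 to 140 CPM in Shell. In each of these members 17-F lay far below all others and the Core and Shell ranges overlapped.

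Rps4x, encoded on the X chromosome, had 4.51 CPM in 17-F, 32.5 to 72.1 CPM in the rest of Core and 36.8 to 60.3 CPM in Shell. Rpl41 had 4.38 CPM in 17-F, 29.4 to 61.3 CPM in the rest of Core and 27.4 to 50.9 CPM in Shell. Rps4y2 had 4 to 18 counts per library, 0.33 CPM in 17-F against 0.37 to 1.16 CPM in the rest of Core, so its lowest libraries were close to 17-F. Library 17-F was the lowest Core library for all 74 members. The mean of the other 41 Core libraries was a median of 7.58-fold above it, from 2.00-fold to 22.7-fold.

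The make-up of the set varied less than its level. Small-subunit genes took 35.8% ± 0.83 (SD, n = 84) of ribosomal protein counts, from 33.3% to 37.3%. They took 36.3% ± 0.44 in the 30 numbered Core libraries and 36.0% ± 0.42 in the 30 numbered Shell libraries. In the F series they took 34.9% ± 0.76 in Core and 34.9% ± 1.01 in Shell. Between the subregions, 68 of 74 members had mean parts of the ribosomal protein counts within 10% of each other. The series differed more: Rps2 made up 1.08% of ribosomal protein counts in the numbered series and 0.687% in the F series, and Rpl38 0.638% and 0.897%. On the log2 scale after TMM (trimmed mean of M-values) scaling of the libraries, the SD over libraries was largest for Rpl37 (0.85), Rpl13a (0.82), Rps23 (0.81) and Rpl23a (0.81), and smallest for Rps4y2 (0.36), Rps28 (0.48), Rpl22 (0.52) and Rps14 (0.53). The upper order rests on 17-F: without it Rpl37 (0.68), Rplp2 (0.64), Rpl13a (0.63) and Rpl19 (0.63) were largest, and Rpl23a (0.60) and Rps23 (0.59) lay below them. The low SD of Rps4y2 is not a sign of a steady level. These log2 values add a prior count of 2, which damps the spread of members with few counts. As a part of the ribosomal protein counts, without such a prior, Rps4y2 had the largest SD of all 74 members (0.55 in log2).

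With the background level as a coefficient in edgeR's quasi-likelihood fit of each subregion (groups and series in the fit, Benjamini-Hochberg adjustment, threshold 0.05), 73 of 74 members in Core and 74 of 74 in Shell fell as the background rose. Over all genes tested 39.6% were called lower in Core and 36.9% in Shell. The background level is read from the same counts and totals, so a fall of expressed genes with it is partly built in. The median slope of the members was -0.47 in Core and -0.45 in Shell, in log2 change for each log2 unit of receptor CPM, where the median of all genes was 0.16 and 0.14. With library totals alone as the scaling, the medians were -0.21 in Core and -0.18 in Shell, and the medians of all genes 0.43 and 0.41. A change of scaling shifts the slopes of all genes by about the same amount. The gap between members and all genes was therefore bound to stay, and it is no separate support. With library totals alone 1 member had a positive slope in each subregion. These were Rps4y2 at 0.16 in Core, where it passed, and Rps28 at 0.01 in Shell, where it did not.

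Among the steepest Core slopes were those of Rpl8 at -0.53 ± 0.06 (SE), Rpl17 at -0.53 ± 0.06, and Rpl23a, Rpl19 and Rpl13a at -0.51 each. The flattest, named after their values were seen, were Rps4y2 at -0.10 ± 0.05, which did not pass (adjusted p = 0.0541 by edgeR), Rps28 at -0.32 ± 0.03 and Rpl22 at -0.37 ± 0.03. In Shell, Rplp2 fell most, at -0.60 ± 0.05, followed by Rpl13a at -0.58, Rpl13, Rplp1, Rpl37 and Rpl23a. There Rps28 at -0.26 ± 0.05, Rps4y2 at -0.26 ± 0.10 and Rps13 at -0.26 ± 0.05 fell least. Rps4y2 and Rpl22 are also the members with the largest part of counts from background. Without 17-F, 73 Core members still fell, with a median of -0.38.

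**Figure D4:**
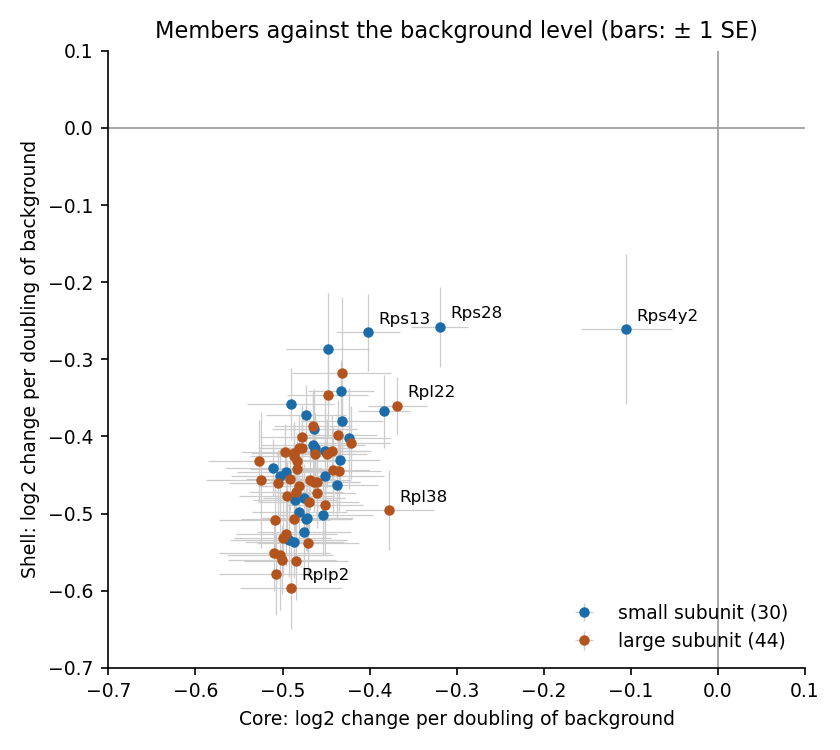
Slope of each member against the background level (log2 change for each log2 unit of receptor CPM, TMM scaling) in Core (x axis) and Shell (y axis); points are the 30 small-subunit and 44 large-subunit members and bars ± 1 SE. All points lie below 0 on both axes, with Rps4y2 at -0.10 in Core and Rps28 at -0.32 the flattest there.

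Other translation genes stood beside them as follows. All 7 elongation factors (such as Eef1a1 and Eef2) fell with the background in both subregions, with medians of -0.49 in Core and -0.46 in Shell. Of 75 measured mitochondrial ribosomal proteins 75 fell in Core and 74 in Shell, with medians of -0.32 and -0.31, but with library totals alone 40 fell and 19 rose in Core and 31 fell and 4 rose in Shell. Of 7 paralogs outside the rule (Rpl3l, Rpl10l, Rpl22l1 and others), 3 fell and 2 rose in each subregion, and the medians were 0.07 and 0.15. Of the marker lists, all 7 oligodendrocyte and all 10 projection neuron genes fell, and all 4 choroid plexus genes rose, in both subregions. With library totals alone 6 oligodendrocyte and 5 projection neuron genes passed in Shell, in the same direction. Shares of all genes called with that scaling are not given here, so its counts do not show how these lists compare with other genes.

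Shell was compared with Core over all 84 libraries, as the mean of the 6 Shell groups against the mean of the 6 Core groups, with the F series as a covariate. In this fit 28 of 74 members were lower in Shell and 0 were higher, where 8.77% of all 32145 genes tested were called lower. The median log2 fold change of the members was -0.35 (range -0.51 to -0.09), all 74 were below 0, and 62 had an unadjusted p under 0.05. The median over all genes was 0.05. Small-subunit and large-subunit members had medians of -0.35 each. The size depends on the scaling: with library totals alone, 12 members were lower and 0 higher, with a median of -0.15 and 69 of 74 below 0, where 5.34% of all genes were called lower. Over all genes that scaling turned 1465 higher and 2818 lower calls into 2559 higher and 1716 lower ones.

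The 3 stalk proteins were all among the 6 members with the largest decrease. Members were not tested against each other, and the median of all 74 was -0.35. Rplp0, the stalk base, had 3.73 CPM in 17-F, 37.1 to 74.5 CPM in the other Core libraries and 18.6 to 55.0 CPM in Shell, with medians of 48.1 and 41.2. The Shell range keeps 12-F, the Shell library with the highest background (55.1%). The log2 fold change of Rplp0 was -0.49 ± 0.14 (SE, n = 42 and 42, edgeR adjusted p = 0.0112). Rplp1 had medians of 64.2 CPM in Core and 54.5 CPM in Shell, lay below the Core median in 39 of 42 Shell libraries, and changed by -0.48 ± 0.15 (adjusted p = 0.0164). Rplp2 had medians of 43.6 and 39.8 CPM and changed by -0.45 ± 0.15 (adjusted p = 0.0275).

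That group also held Rpl34 and Rps15. Rpl34, a large-subunit protein, ran from 27.0 to 54.9 CPM in Core without 17-F and from 19.3 to 42.7 CPM in Shell, and changed by -0.49 ± 0.14 (edgeR adjusted p = 0.00845). Rps15, which takes part in the last steps of small-subunit maturation, ran from 36.6 to 71.8 CPM and from 23.2 to 58.7 CPM, and changed by -0.45 ± 0.14 (adjusted p = 0.0233). The Core ranges of Rpl34 and Rps15 leave out 17-F, but their Shell ranges keep 12-F (background 55.1%). Others called lower included Rps7, Rpl13a, Rpl5, Rps3, Rps23 and Rpl41. At the other end Rps26 at -0.14 ± 0.13, Rpl10a at -0.16 ± 0.13 and Rps4y2 at -0.09 ± 0.09 did not pass.

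The spread of the background differed between the subregions, while its median was 23.7% in each. Its mean was 20.7% ± 17.5 (SD, n = 42) in Core (18.8% ± 12.3 without 17-F) and 24.1% ± 8.92 in Shell. Of the 17 libraries under 10% background 15 were Core and 2 were Shell. The series differed within a subregion too. Their medians were 9.25% (1), 29.0% (2) and 3.97% (F) in Core, and 20.8% (3), 26.9% (4) and 21.2% (F) in Shell. With the background level as a covariate, 0 members were lower and 15 of 74 were higher in Shell, with a median of 0.10, where 29.5% of all genes were called higher, a larger share than among the members. Without 17-F in that fit 13 were higher (median 0.04), again a smaller share than the 28.6% of all genes. With the background percent as a linear term and without 17-F, 18 were lower and 3 higher (median -0.05, where 8.29% of all genes were called lower), so the direction depended on the form of the adjustment. In the 61 libraries with 15 to 40% background alone, a range chosen after the data were seen, 28 were higher and 0 lower (median 0.12, 25.4% of all genes).

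Under the background covariate the largest increases in Shell included those of Rpl10 at 0.29 ± 0.07, Rps26 at 0.29 ± 0.08, Rpl6 at 0.29 ± 0.06, Rpl10a at 0.28 ± 0.06 and Rpl3 at 0.25 ± 0.07, all of which passed. Rpl10 is added late in the assembly of the large subunit, and Rps26 lies near the exit of the messenger RNA. The plot of Shell against Core by member sets the fits side by side. When the background estimate was subtracted from each count, 1 member was lower and 0 were higher, with a median of -0.06, where 7.95% of all genes were called lower. Without 17-F the same subtraction gave 22 lower and 0 higher, with a median of -0.08, where 12.2% of all genes were called lower.

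**Figure D5:**
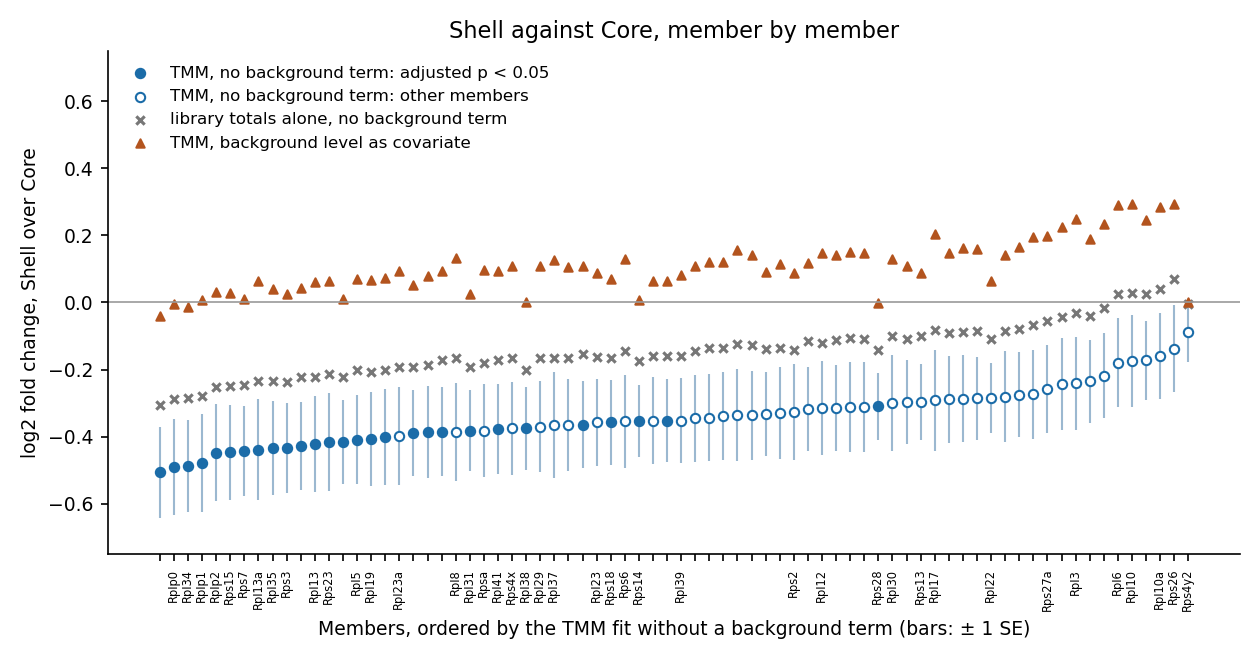
log2 fold change of Shell over Core for each of the 74 members (x axis, ordered, with members of the text labelled): circles are the TMM fit without a background term with ± 1 SE (filled, adjusted p under 0.05), crosses library totals alone, and triangles the fit with the background level as covariate. All circles lie below 0 (median -0.35), the triangles have a median of 0.10, and the crosses a median of -0.15.

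Library 17-F and the series moved the count. Without 17-F, 61 of 74 members were lower in Shell (median -0.38, where 13.7% of all genes were called lower). In the numbered series alone 10 were lower (median -0.27, 7.08% of all genes). In the F series alone 0 passed in edgeR (median -0.57, 0 at an unadjusted p under 0.05), and without 17-F 0 passed there either (median -0.73, 70 at an unadjusted p under 0.05).

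Myelin genes moved with the same comparison. All 7 oligodendrocyte markers (Mbp, Mobp and Opalin among them) were lower in Shell, with a median log2 fold change of -1.75, and of -1.33 with the background covariate. Their summed level was 386 to 5688 CPM in Core (median 3191, lowest 1665 without 17-F) and 699 to 1458 CPM in Shell (median 1086). Of 5 astrocyte markers 2 (Gfap and Aqp4) were lower, of 4 microglial markers 3 were lower, and of 10 projection neuron markers 4 were lower and 1 higher. Whether cell make-up has a part in the ribosomal protein difference was not tested. In bulk tissue fewer cells of a type and less RNA per cell cannot be told apart.

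Other lists of translation genes gave the following calls in Shell against Core, where 8.77% of all genes tested were called lower. Of 7 elongation factors 1 was lower (Eef1d, -0.37 ± 0.10, edgeR adjusted p = 0.00534), of 27 initiation factors 1 (Pabpc1, the poly(A)-binding protein, -0.38 ± 0.12, adjusted p = 0.0279), and of 16 genes of mTOR and S6 kinase signalling 1 (Eef2k, the elongation factor 2 kinase, -0.16 ± 0.03, adjusted p = 3.98e-05). Of 24 measured ribosome biogenesis genes 2 were lower (Polr1a and Pes1), of 75 mitochondrial ribosomal proteins 1 (Mrps24), and of 7 paralogs none. Without 17-F these counts were 2 elongation factors, 6 initiation factors, 3 genes of mTOR signalling, 6 of biogenesis and 7 mitochondrial ribosomal proteins lower, and 1 paralog lower and 1 higher. Over all genes 13.7% were called lower without 17-F. Of 30 measured ribosomal protein pseudogenes 7 were lower (10 without 17-F), and reads of these copies may come from their parent genes. The list medians were -0.22 for elongation factors, -0.17 for initiation factors, -0.13 for mTOR signalling, -0.09 for biogenesis and -0.10 for mitochondrial ribosomal proteins. With library totals alone the medians of initiation factors (0.01), mTOR signalling (0.04), biogenesis (0.05) and mitochondrial ribosomal proteins (0.05) turned positive, and that of elongation factors was -0.03. With the background covariate 62 of 75 mitochondrial ribosomal proteins (median 0.17) and 5 of 7 elongation factors (median 0.24) were higher in Shell. In that fit 29.5% of all genes were called higher.

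The treatment and the conditions were compared within each subregion by 20 contrasts over its 42 libraries, with series as a covariate. In none of them did a member pass: edgeR called 0 of 74 members and 0 genes in all (0% of genes tested), and DESeq2 called 0 members and at most 3 genes in a contrast. At an unadjusted p under 0.05 there were no members in 15 contrasts and at most 15 in one (Shell Ext_Sal against Ctx_Sal). A test of any difference among the 6 groups called 0 members and 0% of genes in Core and in Shell, with 0 members at an unadjusted p under 0.05.

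Averaged over the 3 conditions, Coc against Sal had a median of -0.10 over the members in Core, with 72 of 74 below 0 and none at an unadjusted p under 0.05. The lowest p was that of Rps2 (-0.26 ± 0.21), followed by Rps28 (-0.15 ± 0.14), Rpl38 (-0.19 ± 0.18) and Rps18 (-0.17 ± 0.19), none of which passed in edgeR. In Shell the median was 0.04 with 6 of 74 below 0. Rpl17 (0.16 ± 0.14), Rpl29 (0.10 ± 0.10), Rpl23 (0.10 ± 0.10) and Rpl38 (0.11 ± 0.12) had the lowest p and did not pass. The difference between the drug effects of Shell and Core had a median of 0.17, called 0 members and 0% of genes in edgeR, and had 0 members at an unadjusted p under 0.05. Rpl38 (0.32 ± 0.25), Rpl13 (0.29 ± 0.29), Rpl12 (0.27 ± 0.28) and Rps2 (0.27 ± 0.29) came first there. DESeq2 called 0 members and 1 gene.

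The largest median among the contrasts was that of Core Ctx_Coc against Ctx_Sal, at -0.47 with all 74 members below 0. This is the pair that holds 17-F, and the mean backgrounds were 34.2% and 14.8%. Without 17-F the median was -0.26, with the background covariate -0.21, and with both -0.07. Rps28 (-0.58 ± 0.24), Rpl38 (-0.60 ± 0.31), Rpl22 (-0.52 ± 0.27) and Rpl30 (-0.67 ± 0.36) had the lowest p and did not pass (adjusted p = 0.433 for each, edgeR).

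In Shell, Ext_Sal against Ctx_Sal had a median of -0.30 with all 74 members below 0, beside mean backgrounds of 29.98% and 22.2%. Rps13 (-0.41 ± 0.15), Rpl31 (-0.45 ± 0.17), Rps26 (-0.49 ± 0.19) and Rpl10a (-0.42 ± 0.17) came first, and none passed (adjusted p = 0.509 for each, edgeR). With the background covariate the median was -0.06.

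In 17 of the 18 contrasts between 2 groups the group with the higher mean background had the lower members by the median. These contrasts reuse the same 12 groups and are not separate observations. Background and members are also parts of the same library totals, so this agreement is partly built in. With the background covariate the median changed sign in 10 of the 18, and the median of its size over all 20 contrasts fell from 0.16 to 0.09. With library totals alone it changed sign in 3 of the 18. No alternative setting called a member in any of these contrasts.

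The F series was set against the numbered series in the fit over all 84 libraries, a comparison added after the data were seen. Here 21 members were higher in the F series and 0 lower (median 0.20), where 19.9% of all genes were called higher. Rpl38, a large-subunit protein, was 0.72 ± 0.13 higher (edgeR adjusted p = 0.00019), Rpl37 0.64 ± 0.17 (0.00704) and Rpl35 0.58 ± 0.15 (0.0061), followed by Rpl19 (0.56), Rpl39 (0.54) and Rpl12 (0.53). Rps2, named after its value was seen, stood at -0.37 ± 0.16 and did not pass (0.0598). With library totals alone 9 were higher and 5 lower (median 0.00), and the calls over all genes went from 6403 higher and 4386 lower to 2721 and 351. With the background covariate 1 member was higher and 51 lower, with a median of -0.32, where 17.1% of all genes were called lower.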

How the data were processed

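For 84 libraries the authors deposited raw counts per gene, for which the submitters' processing notes name featureCounts and mRatBN7.2, a rat genome build. Aligner, annotation release and strand setting are not stated in any label or header, so overlapping or antisense genes, pseudogenes and other near copies may share reads with members. The authors also deposited FPKM values, used here only for gene lengths: count and FPKM implied 1 length for 34190 of 34190 genes checked (within 1%). The tables held 0 columns of no sample, and 0 pairs of libraries were identical.

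Counts were filtered (filterByExpr), scaled by TMM and tested with edgeR 4.0.16's two-sided quasi-likelihood F test in R 4.3.3, adjusted over all genes tested with a threshold of 0.05. DESeq2 1.42.0 and the other settings of the closing section were alternatives. CPM are counts divided by the library total in M, with no further scaling. SE is the fold change divided by the root of F. The scripts were tested on simulated data. Olr1, a lipoprotein receptor gene, was left out of the receptor genes.

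Members and lists were chosen with earlier results of these data known. The rule for named members was the 6 highest and lowest levels per kb, the 4 largest and smallest SDs, a fixed list for values by library (Rps6, Rpsa, Rplp0, Rpl3, Rps27a, Rpl41, Rps4x, Rps4y2), the 6 largest increases and decreases where more than 12 members were called, and, where 0 were called, the 4 of lowest p (given for 5 contrasts). Values of some genes that this rule names are not reported here. Promoters came from RefSeq tables of GRCr8, whose coordinates differ from mRatBN7.2. Each library's number of counts (13.6 to 22.5 M) limits the precision of members such as Rps4y2.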

Additional observations from a re-analysis of the deposited data

Results flagged for a closer look

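For each group, a gap test (Dixon's ratio, at the 95% critical value for its number of libraries) was run on 4 measures in 12 groups, 48 sets of values in all. Chance flags about 1 in 20 of such groups. The ribosomal protein share of 6-F in Shell HC_Coc was 0.392%, above the next highest library at 0.325%. The estimated background of 17-F in Core Ctx_Coc was 100.5%, against 36.4% in the next library, and that of 12-F in Shell Ext_Sal was 55.1%, against 32.6%. The small-subunit part of ribosomal protein counts was low in 3 F libraries. It was 34.3% in 1-F of Core Ext_Coc (next 35.7%), 34.0% in 3-F of Core Ext_Sal (next 35.6%) and 33.3% in 4-F of Shell Ext_Sal (next 35.9%). All 6 libraries named here belong to the F series.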

How the results depend on the processing

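For Shell against Core, 28 of 74 members were lower, where 8.77% of all genes tested were called lower. A setting whose share of all genes called is not given above does not show how the members compare with other genes. The count of members was 31 with DESeq2 size factors, 38 with DESeq2's Wald test, 26 without the series covariate, 17 without the low-count filter and 12 with library totals alone, all lower. It was 61 lower without 17-F, 55 lower without 17-F and 12-F, 10 lower without the F series, 0 in the F series alone (with or without 17-F), 1 lower with the background subtracted (22 lower when 17-F was also left out). It turned to 15 higher with the background covariate, 13 higher with that covariate and without 17-F, and 28 higher in libraries with 15 to 40% background. With the background level and its square 13 were called (10 higher, 3 lower), and with the background percent as a linear term and no 17-F 21 (3 higher, 18 lower). The replicate block, which pairs Core 1-k with Shell 3-k and 2-k with 4-k by title number, called 9 lower (median -0.19), and the replicate block with the background covariate called 14 (11 higher, 3 lower). In 27 of 30 such pairs the residuals correlated above 0.1 (lowest -0.05, median 0.29, against -0.02 for other pairings), and 15 of 30 Core libraries correlated best with their own number. This is a hint from the data that the numbers pair libraries, but the labels do not say so and not every pair passed 0.1, so the reported fit has no block. The same numbered libraries without the block gave 10 lower (median -0.27). The F series comparison turned from 21 higher to 52 called (1 higher, 51 lower) with the background covariate. Of the 6 members with the largest decrease, Rplp1 (0.0062), Rplp2 (0.0320) and Rps15 (0.0278) were above 0 with the background covariate, and Rplp0 (0.0027), Rpl34 (0.00027), Rplp2 (0.0326) and Rps15 (0.0278) in libraries with 15 to 40% background. None of these values passed. The slope on the background called 73 members lower and 1 higher in Core and 67 lower in Shell with library totals alone, 73 lower in Core without 17-F, and 73 lower in Core and 71 in Shell without the F series (73 and 74 as reported); the 194 alternatives of the contrasts within subregions and of the difference in drug effect called 0 members. The mean ribosomal protein share outside the background estimate was 0.403% (Ext_Coc), 0.437% (Ext_Sal), 0.403% (HC_Coc), 0.406% (Ctx_Coc) and 0.430% (HC_Sal) in Core, where Ctx_Sal (0.409%) moved by less than 1 SD, and 0.400% (Ext_Coc), 0.404% (Ext_Sal), 0.384% (HC_Coc), 0.373% (HC_Sal), 0.391% (Ctx_Coc) and 0.379% (Ctx_Sal) in Shell. The Core Ctx_Coc value leaves out 17-F, which the group's mean of 0.280% of all counts keeps, so these means rest on different libraries. The cause of the shifts in counts was not tested. Without Rps23, Rpl13a and Rpl3, which hold 10.6% of the members' counts, the share is lower by construction, by more than 1 SD in Shell Ctx_Coc (0.262%) and Shell HC_Sal (0.264%).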
